A study of Mus musculus with 12 samples.

Results

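Mouse bone marrow mesenchymal stromal cells (MSCs) treated with TGF-β1 alone were compared with the same cells left untreated (control). Genes were kept where the FPKM (mapped fragments scaled to transcript length and library depth) reached 1 in 3 or more of the 6 libraries, and 11619 of the 55401 annotated genes met this rule. Both groups were cultured MSCs that the study bought from a commercial supplier and that derive from C57BL/6 mice. TGF-β1 was given at 5 ng/mL, and the control MSCs received none. Each group had 3 mRNA libraries with 76510451 to 83438369 counts per library, and 6 further libraries of MSCs given TGF-β1 with supernatant of myeloid-derived suppressor cells (MDSCs) entered only the scaling and the estimate of the spread. Where 2 sets of 3 values are given for a gene, they are the FPKM of the 3 control libraries against those of the 3 libraries with TGF-β1. The labels do not say whether the 3 libraries of a group came from separate cultures, so that the p-values measure the spread between these libraries, which may be technical.

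TGF-β1 is a secreted cytokine that binds a pair of receptor kinases, TGFBR2 and TGFBR1, which phosphorylate SMAD2 and SMAD3, and these enter the nucleus with SMAD4. In mesenchymal cells it is best known for turning on collagen, matrix and contractile genes, the myofibroblast program, and for inducing its own inhibitors, among them SMAD7, SKIL and PMEPA1. It is also known to counter adipocyte differentiation and to dampen inflammatory gene expression.

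The cells carried the surface markers of the labelled type in part. Of the markers by which the study identified its MSCs, Itgb1 (CD29) was at 263, 247 and 251 FPKM in control and 388, 388 and 381 with TGF-β1. Cd44 was at 41.1, 38.8 and 38.5 against 50.7, 59.8 and 48.5. Kit (CD117) had no count in any of the 6 libraries and Pecam1 (CD31) lay between 0.0674 and 0.114 FPKM. Both positive markers were thus present and both negative markers absent or near 0, whereas Ly6a (Sca-1) was high in control and differed with TGF-β1, as described below with the other surface genes. Of 8 endothelial markers and 7 epithelial markers, none passed the filter, with summed levels of 0.333 to 0.422 and 0.0721 to 0.709 FPKM per library. Of 12 macrophage and leukocyte markers, 4 passed, and Adgre1 and Cd3e were at 0 in all 6 libraries. The summed level of these 12 was 27.3 to 29.0 FPKM in control and 15.6 to 17.0 with TGF-β1, of which Cd14 alone made 23.0 and 13.8. Libraries of the same group correlated between 0.9804 and 0.9839 (Pearson's r of log2 values across genes, which are not independent replicates, 6 pairs), and libraries of different groups between 0.9475 and 0.9516 (9 pairs). In bulk libraries such as these, fewer cells of a type and less RNA per cell cannot be told apart.

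More genes were lower than higher with TGF-β1. By the rule that the study used, more than 2-fold in either direction at p under 0.05 before adjustment, 283 genes were higher (2.44% of the genes tested) and 470 were lower (4.05%). At an adjusted p under 0.05 (edgeR's quasi-likelihood test with Benjamini-Hochberg adjustment, both directions), 1913 genes rose (16.5%) and 2138 fell (18.4%), and the median log2 fold change of all genes tested was 0.003. Here "rose" and "fell" refer to that adjusted threshold, and "2-fold" calls to the rule of the study. On the scale of log2(FPKM + 1) with limma, 1449 genes rose and 2718 fell, so that 34.8% of the changes were rises in place of 47.2%. The FPKM values of the 3 libraries with TGF-β1 and the 3 control libraries did not overlap for 275 of the 283 higher genes (97.2%) and 460 of the 470 lower genes (97.9%), against 5527 of all genes tested (47.6%).

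**Figure D1:**
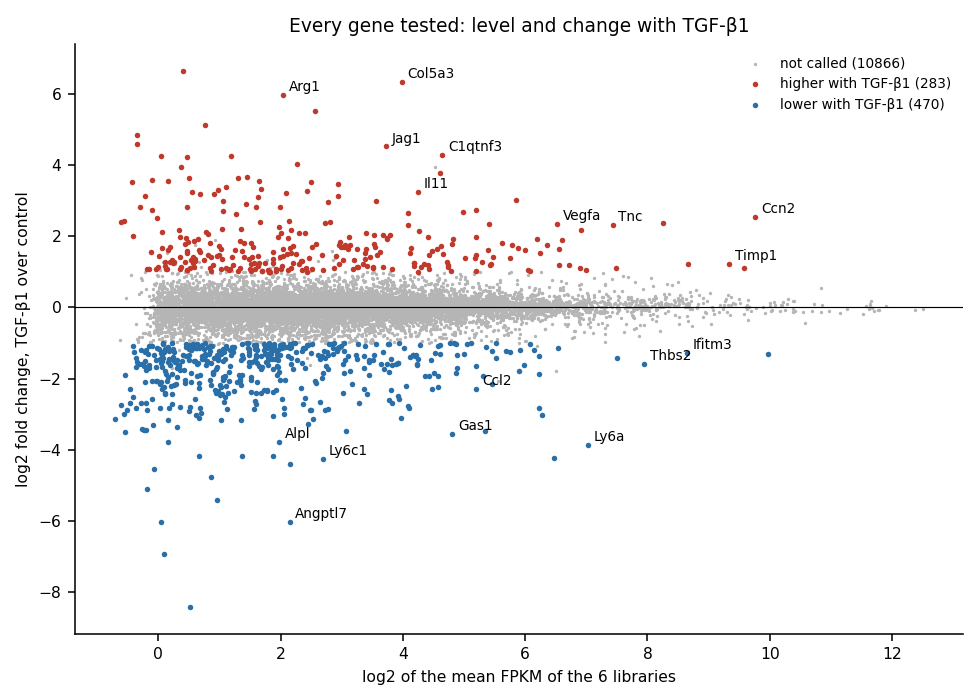
Each point is 1 of the 11619 genes tested, with the log2 of its mean FPKM over the 6 libraries on the x axis and the log2 fold change of TGF-β1 over control on the y axis. Red points are the 283 genes called higher, blue points the 470 called lower, and grey points the rest. The lower genes are more numerous, and genes of both directions are found from the lowest to high levels.

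The 2 sides differed in level. The higher genes had a median of 2.05 FPKM in control and 6.47 with TGF-β1, and 37 of them reached 50 FPKM with TGF-β1. The lower genes had a median of 4.30 FPKM in control and 1.22 with TGF-β1, 28 reached 50 FPKM in control, and 260 of the 470 stayed under 5 FPKM in control. Changes beyond 4-fold were seen for 82 higher and 145 lower genes, and beyond 8-fold for 38 and 37. Summed over genes, the higher side gained 6841 FPKM and the lower side lost 5647. Protein-coding genes made up 248 of the higher (87.6%) and 433 of the lower genes (92.1%), against 86.4% of all genes tested, and 14 genes on each side were annotated as pseudogenes only.

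The genes named below are, in the main, the 12 with the largest rise and the 12 with the largest fall among 2-fold calls past the adjusted threshold that reached 5 FPKM and did not overlap between groups, and the 3 largest rises and falls of each of 31 gene lists. Further members of these lists and a few genes of no list were chosen after their values were seen. Together the lists hold 72 of the 283 higher genes (25.4%) and 96 of the 470 lower genes (20.4%), against 4.64% of all genes tested.

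Among the largest rises were a fibrillar collagen, a Notch ligand and a semaphorin. Col5a3, the third chain of type V collagen (ENSMUSG00000004098, GRCm38 chr9:20770050-20815067), was at 0.348, 0.410 and 0.442 FPKM in control and 30.3, 34.2 and 28.9 with TGF-β1, a log2 fold change of 6.34 ± 0.15 (SE, edgeR adjusted p = 5.41e-10). It was below the filter level of 1 FPKM in every control library and above 20 FPKM in every treated library. Jag1, a membrane-bound Notch ligand, was at 1.27, 1.13 and 1.01 FPKM against 23.6, 27.5 and 24.4. Its treated libraries too all lay above 20 FPKM. C1qtnf3, a secreted protein with a C1q-like domain, was at 2.35, 2.34 and 2.89 against 46.1, 49.0 and 46.7, and it was the most abundant of the largest rises after treatment. Sema7a, a membrane-anchored semaphorin, was at 1.33, 1.23 and 1.40 against 13.1, 14.9 and 13.9.

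Further rises of this size concerned a protease, a hormone and a matrix proteoglycan. Ctsw, a cysteine protease known from cytotoxic lymphocytes, was at 0.265, 0.184 and 0.301 FPKM in control and 12, 13.1 and 9.43 with TGF-β1. Fgf21, a secreted metabolic hormone, was at 0.208, 0.424 and 0.586 against 5.02, 5.38 and 4.74. Fmod, the collagen-binding proteoglycan fibromodulin, was at 0.334, 0.602 and 0.575 against 5.94, 6.24 and 5.06. The 3 treated libraries lay above the 3 control libraries for each of these 3 genes, by log2 fold changes of 5.52, 3.68 and 3.56.

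A further 4 of the 12 largest rises were less even. The predicted genes Gm10233 and Gm10273 were at 1, 14.8 and 11.3 FPKM and 1.52, 15.6 and 12.1 FPKM in the 3 libraries with TGF-β1, so that replicate 1 lay close to the control levels of 0.412, 0.600 and 0.656 and 0.864, 1.10 and 1.18, and the call of Gm10273 was lost in 8 of the alternatives. The zinc finger genes Zfp260 and Zfp422 were more even, at 0.561, 1.54 and 0.692 against 10.9, 10.3 and 9.91 FPKM and 0.636, 0.620 and 0.537 against 5.74, 5.93 and 5.83 FPKM. In the 6 libraries with MDSC supernatant, however, the same genes took either of these levels within a single group, from 0.634 to 9.43 FPKM for Zfp260 and from 0.57 to 5.75 for Zfp422. Replicates of 1 group differed by at least 4-fold, with a level of at least 5 FPKM in 1 of them, for 171 of all genes tested (1.47%), 10 of the 283 higher genes (3.53%) and 11 of the 470 lower genes (2.34%). The standard errors of these 4 genes, from 0.86 to 1.04 on the log2 scale, were accordingly far above the median of 0.095 over all genes.

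**Figure D2:**
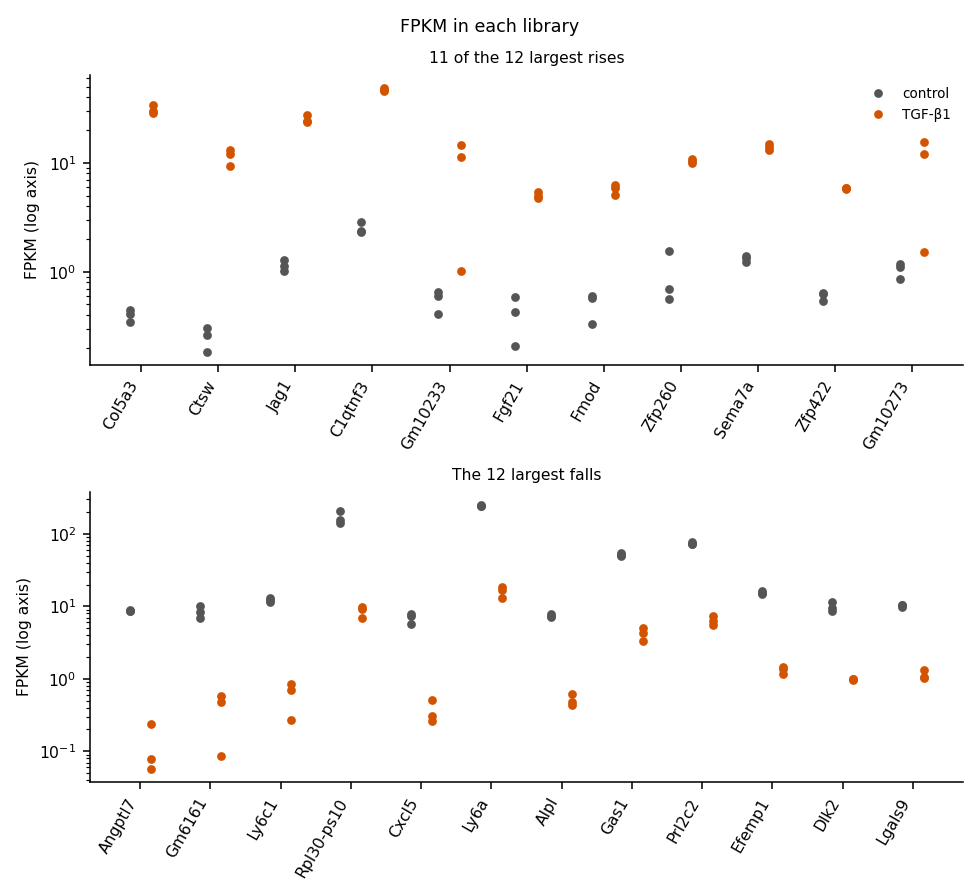
FPKM on a log axis in each library for 11 of the 12 largest rises (top) and the 12 largest falls (bottom), with control libraries in dark grey and libraries with TGF-β1 in orange. The 3 treated points lie apart from the 3 control points for every gene, and for Gm10233 and Gm10273 replicate 1 with TGF-β1 lies near the controls.

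The TGF-β ligands rose while Tgfbr2, Tgfbr3 and Smad3 fell. Of 23 genes for signalling and its feedback, 21 were tested, of which 13 rose and 4 fell, with a median log2 fold change of 0.38. Tgfb1 itself was at 3.33, 3.58 and 3.92 FPKM in control and 12.3, 15.8 and 13.1 with TGF-β1, and Tgfb3 and Tgfb2, the other ligands, rose by log2 fold changes of 0.71 and 0.36. The call of Tgfb2 was lost without replicate 2 of the control or replicate 2 with TGF-β1. Inhba, the activin A subunit, was at 31.6, 25.6 and 29.6 against 92.8, 94.2 and 79.5. These 4 ligand genes thus rose together. Of the receptors, Tgfbr2 was at 36.7, 36.2 and 37.5 FPKM against 18.2, 17.4 and 17.4, a 2.09-fold lower mean. Tgfbr3, the co-receptor betaglycan, was at 25.1, 22.4 and 23.7 against 4.41, 3.03 and 3.84. Tgfbr1 was at 5.16, 4.42 and 4.74 against 4.55, 4.05 and 3.93, and these overlapping values did not pass the test (log2 fold change -0.13 ± 0.14 SE, edgeR adjusted p = 0.498).

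Inside the cell, Smad3, which carries the signal to the nucleus, fell from 30.4, 28.7 and 27.6 FPKM to 14.0, 13.9 and 13.9, whereas Smad4, the common partner, rose by 0.30 on the log2 scale. Among the inhibitors, Pmepa1, which sequesters SMADs, was at 27.0, 25.4 and 25.5 against 85, 86.5 and 81.8. Smad7, which blocks the receptor, rose by 0.80, and Ldlrad4, a relative of Pmepa1, by 1.24. Pmepa1, Smad7 and Ldlrad4, all inhibitors of the pathway, were therefore higher. Smad6, the inhibitory SMAD of the BMP branch, fell (log2 fold change -0.82). Skil, a SMAD corepressor, rose by 1.53, but its libraries ranged from 2.54 to 8.72 FPKM in control and from 8.33 to 21.0 with TGF-β1, and these ranges overlap. Without replicate 2 with TGF-β1 the rise of Skil was 1.23 and no longer passed (edgeR adjusted p = 0.0526).

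BMPs (bone morphogenetic proteins) are relatives of TGF-β that signal through SMAD1 and SMAD5 and induce the Id genes, which block differentiation factors. All 3 Id genes that were tested fell. Id3 was at 45.0, 46.9 and 47.0 FPKM in control and 11.7, 12.8 and 12.7 with TGF-β1. Id2 was at 15.3, 16.2 and 15.9 against 4.75, 4.58 and 4.61, and Id1 fell from a mean of 84.9 to 35.5. Bmp4, a ligand of the branch, fell from 2.08 to 0.582 FPKM. The secreted antagonist Grem1 moved the other way, at a mean of 65.9 FPKM in control and 145 with TGF-β1. Fstl3, which binds activins, was at 3.75, 4.40 and 2.83 against 11.5, 12.8 and 11.4. The receptors Bmpr1a, Bmpr1b and Bmpr2 and the transducers Smad1 and Smad5 rose as well, by log2 fold changes of 0.20 to 1.08. The calls of Bmpr1a, whose groups overlapped, and of Smad1 were each lost in 4 of 14 alternatives, among them the fit on the 6 libraries alone (edgeR adjusted p = 0.0634 and 0.0618), and for Bmpr1a those without replicate 2 of the control or replicate 1 with TGF-β1, for Smad1 those without replicate 1 of the control or replicate 2 with TGF-β1. Of the 20 genes of the list, 13 were tested, of which 9 rose and 4 fell.

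Growth factors and cytokines changed in both directions. Of 32, 25 were tested, 12 rose and 10 fell, and 14 passed the 2-fold rule (9 higher and 5 lower). Over the 18 with a mean of at least 1 FPKM in both groups, 9 rose and 7 fell. Il11, a cytokine of the interleukin 6 family that fibroblasts secrete, was at 3.58, 4.06 and 3.66 FPKM in control and 31.1, 37.1 and 34.7 with TGF-β1. Vegfa, which promotes vessel growth, was at 30.8, 32.0 and 31.0 against 153, 157 and 148. Il11 and Vegfa rose by log2 fold changes of 3.24 and 2.35. Members of 1 family diverged. Within the VEGF family, Vegfc rose (log2 fold change 1.76) while Vegfd was at 23.7, 22.5 and 24.4 against 4.74, 4.17 and 4.65 FPKM, a fall of 5.21-fold in the mean. Within the PDGF family, Pdgfc, Pdgfa and Pdgfb rose (log2 fold changes of 1.93, 1.70 and 0.67), and Pdgfd fell (-0.94). Of the FGFs, which signal to epithelia or act as hormones, Fgf21 rose whereas Fgf7 was at 36.0, 33.3 and 38.2 against 10.3, 8.70 and 9.59 FPKM and Fgf10 fell (-1.34). Kitl, the stem cell factor of the bone marrow niche, fell from 2.62, 2.46 and 2.83 to 0.666, 0.423 and 0.479 FPKM.

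Receptors of these factors changed in both directions. Of 25 receptor kinases and growth factor binding proteins, 13 were tested, 2 rose and 6 fell. The PDGF receptors diverged, with Pdgfra at 15.5, 13.2 and 13.2 FPKM in control and 5.33, 4.92 and 4.58 with TGF-β1. Pdgfrb was at 32.1, 32.9 and 32.0 against 46.2, 44.2 and 43.6. Fgfr1 rose from a mean of 25.9 to 40.0, and Met, the receptor of hepatocyte growth factor, fell from 7.78 to 3.68. Igfbp6, a secreted protein that binds IGF2, was abundant in control at 258, 269 and 272 FPKM and was at 96.4, 90.5 and 99.8 with TGF-β1. The direction of these changes thus differed between receptors, also within the PDGF pair.

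Most collagen genes that were tested rose, beyond those that the study used as fibrosis markers. Of 20 further collagen chains, 14 were tested, 11 rose and 2 fell, with a median log2 fold change of 0.62. Over the 12 with a mean of at least 1 FPKM in both groups, 9 rose and 2 fell, with a median of 0.57. Besides Col5a3, the larger rises were those of Col7a1, the anchoring fibril collagen, at 1.69, 1.52 and 1.62 FPKM against 12.4, 11.9 and 11.7, and of Col27a1, at 0.615, 0.496 and 0.493 against 2.15, 2.05 and 1.86. Of the chains above 10 FPKM in control, Col1a2, Col4a1, Col4a2, Col16a1 and Col12a1 rose by less than 2-fold, with Col1a2 at a mean of 272 FPKM in control and 408 with TGF-β1, Col4a1 at 79.3 and 123, and Col12a1 at 14.3 and 23.8. Col6a1 did not pass, at a mean of 54.8 and 57.1 (log2 fold change 0.12, edgeR adjusted p = 0.0656). Col4a5 and Col8a1 fell. Col4a5, a basement membrane chain, was at 8.54, 7.92 and 7.72 against 3.31, 3.02 and 3.29. Col8a1 was at 15.8, 14.3 and 15.8 against 9.87, 9.60 and 8.71. The 9 fibrosis markers of the study all rose (median log2 fold change 1.23), and since the study named these genes in its account of these same libraries, their direction is not independent evidence.

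Enzymes of collagen maturation rose in part. Of 24, 23 were tested, 12 rose and 6 fell. Lox, the lysyl oxidase that cross-links collagen and elastin, was at 257, 248 and 252 FPKM in control and 578, 569 and 533 with TGF-β1. Loxl2 was at 11.5, 11.6 and 10.3 against 24.8, 27.0 and 24.0, while Loxl4 fell from 27.6, 26.7 and 27.1 to 17.4, 16.9 and 16.7. The enhancers of procollagen processing went opposite ways. Pcolce was at 121, 136 and 130.1 against 57.6, 52.8 and 59.4. Pcolce2 was at 1.91, 2.04 and 1.81 against 7.34, 8.50 and 7.93. On the FPKM scale the loss of Pcolce was larger than the gain of Pcolce2. Bmp1, the protease that removes the C-propeptide, was at 19.9, 21.0 and 20.5 against 49.5, 52.4 and 53.3.

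Matricellular proteins showed some of the largest changes of the matrix in either direction. Of 27 elastic fibre and matricellular genes, 24 were tested, 11 rose and 6 fell. Tnc, tenascin C, was at 63.1, 58.9 and 55.2 FPKM in control and 287, 300.3 and 269 with TGF-β1. Postn, periostin, was at 0.103, 0.120 and 0.0692 against 3.59, 3.28 and 3.03, a level that stayed low after treatment. Ccn4 was at 14.6, 15.4 and 16.0 against 55.9, 61.6 and 56.2, and Ltbp2 and Fbn1, of the microfibrils, rose by log2 fold changes of 1.92 and 1.15. Thbs2, thrombospondin 2, fell from 383, 368 and 376 to 136, 107 and 116, while its relative Thbs1 differed by 0.20, a call that was lost in 5 of 14 alternatives, including those without replicate 2 or 3 of the control or replicate 1 or 2 with TGF-β1. Efemp1, fibulin 3, was at 15.5, 16.1 and 14.7 against 1.45, 1.36 and 1.18. Mfap5, a microfibril protein, was at 5.43, 6.43 and 6.16 against 3.03, 2.95 and 3.31. Of the 5 small leucine-rich proteoglycans tested, Fmod, Dcn and Bgn rose, and Ogn and Prelp fell. Ogn, osteoglycin, was at 38.2, 31.6 and 42.0 against 8.38, 6.44 and 6.91 FPKM. Prelp was at 2.17, 2.13 and 2.27 against 1.21, 1.12 and 0.991. Bgn, biglycan, was the most abundant, at 440.5, 460.3 and 472 against 597, 594 and 557.

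Matrix proteases and their inhibitors, apart from the fibrosis markers of the study, fell more often than they rose. The inhibitor Timp1, which is counted with those markers and not here, rose. Of 27, 17 were tested, 5 rose and 10 fell. Adam12, a membrane-bound metalloproteinase of myofibroblasts, was at 2.66, 2.87 and 2.63 FPKM in control and 21.8, 21.4 and 19.5 with TGF-β1. Mmp9 was at 0.153, 0.169 and 0.321 against 1.21, 1.16 and 1.03, a low level in both groups. Plau, urokinase, fell from 64.8, 70.9 and 66.5 to 23.9, 24.8 and 23.6, while its receptor Plaur was at 36.9, 39.4 and 34.2 against 51.0, 58.1 and 59.0. The ligand and its receptor thus moved apart. Adamts5, an aggrecan-cleaving protease, was at 6.47, 5.88 and 5.91 against 1.58, 1.61 and 1.53. Serpine2, an inhibitor of thrombin and urokinase, was at 23.6, 21.5 and 23.6 against 7.97, 6.45 and 7.85.

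Integrins are the receptors for the matrix. Of 18 integrin genes, 10 were tested, 7 rose and 3 fell. Over the 8 with a mean of at least 1 FPKM in both groups, 6 rose and 2 fell. Itga5, the fibronectin receptor chain, was at 43.7, 47.4 and 44.0 FPKM in control and 188, 207 and 192 with TGF-β1. Itga11, a collagen receptor chain, was at 2.72, 2.41 and 2.59 against 5.81, 5.65 and 5.09. Itgav, Itgb3 and Itgb5, whose heterodimers bind latent TGF-β, rose by log2 fold changes of 0.46 to 0.69. Of the laminin receptor chains, Itga3 and Itga6 fell and Itga7 rose. Itga3 was at 120.1, 119 and 116 against 31.8, 29.2 and 31.8. Itga6 was at 6.37, 5.05 and 5.28 against 2.02, 2.42 and 1.95. Itga7 was at 1.10, 0.979 and 0.852 against 1.92, 1.65 and 1.92. Itgb7, of leukocyte integrins, fell as well, at 1.27, 1.16 and 1.01 against 0.197, 0.0626 and 0.211. Nid1 and Nid2, nidogens that bind laminin to collagen IV in basement membranes and that belong to no list, fell from means of 45.4 to 13.5 and from 11.7 to 1.52 FPKM.

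Contractile and actin genes rose by small amounts. Of 28, 20 were tested, 13 rose and 2 fell, with no 2-fold call and a median log2 fold change of 0.32. Cnn1, calponin 1, was at 25.9, 19.6 and 28.6 FPKM in control and 48.3, 41.5 and 52.1 with TGF-β1. Pdlim7 was at 23.0, 25.8 and 26.7 against 46.3, 48.5 and 43.7. Actg2, smooth muscle γ-actin, was at 2.03, 2.67 and 2.75 against 3.87, 3.96 and 4.20. Zyx, a focal adhesion protein, fell from 248, 240.2 and 222 to 169.5, 171 and 150.5, and Cnn2 from 282, 312 and 297 to 243, 256 and 251. Myh11, Myocd, Des and Mylk, which mark differentiated smooth muscle, were below the filter and not tested. Des was at a mean of 0.496 FPKM in control and 0.0166 with TGF-β1, and Mylk at 0.185 and 0.0230. Myh11 was at 0.0265 and 0.0359, and Myocd at 0 in both groups. Of the actins below the filter, Actc1 was at a mean of 1.71 and 0.00863, with 0 in replicate 1 of the control, and Acta1 at 0.574 and 0.695. Has2, which makes hyaluronan, was at 13.8, 13.3 and 12.6 against 101, 108 and 97.8 FPKM. Cotl1, an F-actin binding protein, was at 8.24, 9.70 and 8.54 against 51.1, 57.5 and 53.7. Both of these genes of no list rose by more than the contractile genes, with log2 fold changes of 3.01 and 2.67.

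Mesenchymal transcription factors went both ways. Of 29, 27 were tested, 9 rose and 11 fell. Egr2 was at 2.03, 2.20 and 1.93 FPKM in control and 7.74, 9.64 and 8.03 with TGF-β1. Junb was at 38.3, 41.1 and 41.2 against 107, 110.2 and 114. Runx1 was at 1.82, 1.52 and 1.81 against 4.46, 4.66 and 4.27. Snai1, a factor of epithelial-mesenchymal transition, rose by 1.14 on the log2 scale, and Scx, of the tendon lineage, by 0.87. The falls were smaller, with Fosl2 at 43.0, 37.6 and 38.0 against 19.4, 17.2 and 19.1. Klf4 was at 7.93, 8.22 and 8.99 against 5.39, 4.21 and 3.74. Klf5 was at 9.59, 10.4 and 9.83 against 6.03, 5.38 and 4.93. Egr1 fell (log2 fold change -0.79) although its relative Egr2 rose.

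Pparg, Cebpd and Lpl led the falls of the adipocyte lineage. Of 25, 13 were tested, 2 rose and 7 fell. Pparg, the master regulator of the lineage, was at 5.39, 6.24 and 5.48 FPKM in control and 1.62, 1.61 and 1.69 with TGF-β1. Cebpd, which acts before it, was at 4.94, 5.48 and 5.83 against 1.07, 1.05 and 0.836. Lpl, lipoprotein lipase, was at 10.8, 10.5 and 10.6 against 3.29, 3.10 and 2.81. These 3 genes had log2 fold changes from -2.40 to -1.73, and Plin2, which coats lipid droplets, moved the other way, from 5.67, 5.72 and 5.49 to 16.5, 18.5 and 17.8. Adipoq, Cd36, Cfd and Lep, which mark mature adipocytes, were at 0 in all 6 libraries. Of 22 bone and cartilage genes, only 6 were tested. Alpl, the alkaline phosphatase of osteoblasts, was at 7.05, 7.75 and 7.31 against 0.619, 0.434 and 0.486. Runx2, an osteoblast transcription factor, was at 5.49, 4.60 and 4.67 against 7.16, 8.30 and 8.07. Tnfrsf11b, the RANKL decoy receptor osteoprotegerin, was at 0.0680, 0 and 0.0911 against 1.36, 1.95 and 1.25. Mgp, an inhibitor of calcification in no list, fell from 132, 145 and 137 to 17.9, 13.6 and 17.7.

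The surface genes of MSCs split. Of 21 surface and niche genes, 14 were tested, 6 rose and 7 fell, and over the 11 with a mean of at least 1 FPKM in both groups 4 rose and 6 fell. Ly6a, the gene of Sca-1 and 1 of the markers that defined these cells, was at 241, 243 and 251 FPKM in control and 16.7, 13.0 and 18.8 with TGF-β1 (ENSMUSG00000075602, GRCm38 chr15:74994877-74998031), a 15.2-fold lower mean (log2 fold change -3.86 ± 0.13 SE, edgeR adjusted p = 4.1e-09). Cd34 was at 60.1, 66.0 and 63.0 against 17.4, 13.5 and 16.9. Itgb1 and Cd44 rose, by log2 fold changes of 0.66 and 0.48. The 4 genes were all well above the filter in both groups and did not overlap between groups. Mcam, a pericyte marker, was at 21.0, 22.1 and 21.0 against 59.5, 63.2 and 65.4. Cspg4 (NG2), another, was at 0.791, 0.763 and 0.524 against 4.21, 4.45 and 3.77. Alcam was at 0.537, 0.532 and 0.463 against 1.53, 1.53 and 1.63. Thy1 and Vcam1 fell (log2 fold changes of -0.99 and -1.25). Eng was at a mean of 0.766 and 0.683 FPKM and Nt5e at 0.407 and 1, and both stayed below the filter.

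Ly6a lies in a cluster of related genes. Ly6c1 was at 11.5, 12.4 and 13.1 FPKM in control and 0.862, 0.270 and 0.700 with TGF-β1. Ly6g, which was counted here among the leukocyte markers, was at 1.88, 1.74 and 1.89 against 0.0445, 0.0930 and 0.0670. Of the 8 tested genes whose symbols start with Ly and a digit, Ly6a, Ly6c1, Ly6c2, Ly6e, Ly6g and Ly6g2 were lower by the 2-fold rule. Ly6c1, Ly6c2, Ly6g and Ly6g2 had a mean below 1 FPKM with TGF-β1, so that they were tested through their control level alone. Of the 4 genes with a mean of at least 1 FPKM in both groups, Ly6a and Ly6e were lower. Ly75 and Ly96, which are grouped here by symbol alone and are not Ly6 genes, did not pass. Ly96 passed as lower without replicate 1 with TGF-β1 (log2 fold change -0.66, edgeR adjusted p = 0.00986). Ly6e no longer passed the adjusted threshold when replicate 1 of the control or replicate 2 or 3 with TGF-β1 was left out (log2 fold changes of -1.25, -1.53 and -1.74, edgeR adjusted p = 0.0951, 0.0804 and 0.0680). The Ly6 genes resemble each other in sequence, so that the counts of single members are uncertain where the counting could split reads between copies. Gas1, a membrane protein of hedgehog signalling, was at 50.8, 49.2 and 55.4 against 5.03, 3.33 and 4.26. Prl2c2, proliferin, was at 77.7, 72.1 and 73.8 against 5.56, 6.28 and 7.39, and it too has near-identical copies.

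Interferon-stimulated genes had the highest share of falls of the 31 lists. These genes answer to type I or type II interferon through STAT and IRF transcription factors, and encode antiviral effectors. Of 40, 31 passed the filter, of which 30 fell and 0 rose, and 23 of the 31 were lower by the 2-fold rule, with a median log2 fold change of -1.29. Since 11 of the 31 passed only through the group where they were higher, the count was also taken over the 20 with a mean of at least 1 FPKM in both groups, and 19 of those fell (median -1.14). The 1 tested member that did not pass was Ifi47 (log2 fold change -0.64). The summed level of all 40 was 1257 to 1362 FPKM per library in control and 651.2 to 725 with TGF-β1.

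Many promoters of these genes carry the interferon-stimulated response element (ISRE), the site bound by IRF9 together with STAT factors. The letters GAAANNGAAA, on either strand, were searched in RefSeq promoter windows of GRCm38.p6 from 250 bases before to 50 after each start, and 30 of the 40 genes had a window. The letters occurred in 16 of the 25 members that fell and had a window (64.0%), against 299 of the 8198 tested genes with a window (3.65%). The 200 bases before the start of 4 members with several matches are shown 5′ to 3′ on the strand of the gene, with the matches on either strand in capitals.
Ifit3, chr19:34583329-34583528, + strand: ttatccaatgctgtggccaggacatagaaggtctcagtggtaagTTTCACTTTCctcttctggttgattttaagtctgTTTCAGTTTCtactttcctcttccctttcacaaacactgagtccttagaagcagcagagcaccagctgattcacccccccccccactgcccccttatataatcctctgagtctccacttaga
Ifit1, chr19:34640689-34640888, + strand: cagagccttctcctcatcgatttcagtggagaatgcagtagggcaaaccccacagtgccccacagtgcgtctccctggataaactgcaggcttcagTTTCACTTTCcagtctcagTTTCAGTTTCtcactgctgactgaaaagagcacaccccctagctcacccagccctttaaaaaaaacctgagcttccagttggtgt
Gbp3, chr3:142559844-142560043, + strand: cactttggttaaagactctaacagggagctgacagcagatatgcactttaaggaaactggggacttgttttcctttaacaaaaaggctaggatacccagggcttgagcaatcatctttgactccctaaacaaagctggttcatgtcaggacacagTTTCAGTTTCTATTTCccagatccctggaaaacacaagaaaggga
Isg15, chr4:156200819-156201018, - strand: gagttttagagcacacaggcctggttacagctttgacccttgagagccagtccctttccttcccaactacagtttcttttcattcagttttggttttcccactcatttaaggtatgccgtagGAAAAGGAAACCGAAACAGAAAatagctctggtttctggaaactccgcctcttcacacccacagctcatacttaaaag

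These 4 genes lie on 3 chromosomes, and the matches of Gbp3 and Isg15 overlap each other, as 2 and 3 staggered copies. Ifit3 was at 8.88, 8.51 and 12.5 FPKM in control and 1.32, 1.38 and 1.18 with TGF-β1. Ifit1 was at 26.5, 25.2 and 27.1 against 3.86, 4.30 and 4.55. Gbp3 was at 2.88, 3.18 and 3.84 against 0.695, 0.517 and 0.645. Isg15 was at 15.2, 18.8 and 20.4 against 6.79, 6.95 and 8.22. Every treated library was below every control library for each of the 4. Outside the list, 283 tested genes held the letters in their window, of which 80 fell (28.3%) and 24 were lower by the 2-fold rule (8.48%), and 48 rose (17.0%). Of the 7899 tested genes with a window without the letters, 1588 fell (20.1%), 294 were lower by the 2-fold rule (3.72%) and 1397 rose (17.7%). A match describes the letters only, and no site was tested. Among the 24 were Cxcl10, Lgals9, Tgtp1, Tgtp2, Irgm2, Gbp2b, Oas1c, Oas1g, Trim21 and Trim30a. The others were Gstt1, Crybg1, Selenop, Emilin2, Inhbb, Ifi203, Akr1c14, Itga3, Sqor, Apol9a, Apol9b, Trim12c, Fosl2 and Capn6.

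The members covered the effector and the sensing side. Of the effectors, Rsad2, viperin, was at 2.42, 2.67 and 2.42 FPKM against 0.378, 0.249 and 0.318. Ifit3b, a near-identical copy of Ifit3, was at 6.00, 5.66 and 8.16 against 0.920, 0.580 and 0.789. Ifitm3, which restricts virus entry, was the most abundant of the list in control, at 549.7, 594 and 584 against 212, 221 and 246. Bst2, tetherin, was at 71.6, 70.2 and 76.9 against 25.9, 31.0 and 33.6. All 4 Ifit genes, all 4 Gbp genes and all 4 Oas genes that were tested were lower by the 2-fold rule, against 4.05% of all genes tested. Only 3 of the Ifit genes, 1 of the Oas genes and 0 of the Gbp genes had a mean of at least 1 FPKM in both groups. The rest were tested through their control level alone, and members of these families share sequence. Of the sensors, Ddx58 (RIG-I), Dhx58 and Ifih1 (MDA5) fell, with log2 fold changes of -1.42, -2.18 and -0.54. Of the transcription factors, Irf7, Irf9, Irf1 and Stat2 fell, with log2 fold changes of -1.80, -1.13, -1.20 and -0.96. B2m, of MHC class I, had the smallest change, -0.28.

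Chemokines and inflammatory mediators fell along with them. Of 29, 18 were tested, 2 rose and 12 fell, and over the 11 with a mean of at least 1 FPKM in both groups, 2 rose and 6 fell. Ccl2, which attracts monocytes, was at 58.5, 64.4 and 61.9 FPKM in control and 11.3, 12.5 and 12.2 with TGF-β1. Its neighbour Ccl7 was at 26.9, 25.7 and 29.6 against 5.22, 5.20 and 6.73. Cxcl5, which attracts neutrophils, was at 7.76, 5.79 and 7.36 against 0.311, 0.259 and 0.512. Cxcl10, an interferon-induced chemokine, was at 3.44, 3.85 and 3.72 against 0.486, 0.506 and 0.664. Ccl9 was at 1.6, 1.57 and 1.63 against 0.113, 0.210 and 0.0898. All chemokines of the CCL and CXCL families in the list that passed the filter, except Cxcl16 (log2 fold change 0.43, which did not pass the test), were lower. Of these, Ccl9, Cxcl1, Cxcl5 and Cxcl10 had a mean below 1 FPKM with TGF-β1, so that they were tested through their control level alone. Ccl25, outside the list, had a mean of at least 1 FPKM in both groups and did not pass. Csf1, the macrophage growth factor, fell from a mean of 76.3 to 30.9, and Il33, an alarmin, from 4.13 to 0.940. Prostaglandin enzymes parted, with Ptgs2 (COX-2) at 123, 108 and 116 against 254, 240.0 and 231 and Ptges, the prostaglandin E synthase downstream of it, falling from a mean of 9.30 to 3.44. Cx3cl1, fractalkine, rose from 1.71, 1.73 and 1.81 to 2.55, 2.95 and 2.39.

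Complement genes fell as well. Of 22, 13 were tested, 0 rose and 9 fell, and over the 8 with a mean of at least 1 FPKM in both groups 4 fell. These counts depend on the members listed. They include the C1q-related C1qtnf1, which fell (log2 fold change -1.47), and C1qtnf6, which did not pass (0.07). C1qtnf3, which rose (4.28), was not in the list. The proteases of the classical pathway were C1s1, at 4.86, 4.33 and 4.71 FPKM in control and 0.522, 0.467 and 0.485 with TGF-β1. C1ra was at 9.68, 9.61 and 10.4 against 1.33, 1.25 and 1.28. The related C1rl was at 2.40, 2.51 and 2.63 against 0.373, 0.258 and 0.404. The component C3, with C4b and the inhibitor Serping1, fell, with log2 fold changes of -2.28, -2.30 and -2.68. Masp1, of the lectin pathway, was at a mean of 7.12 and 6.86 and did not pass. Ptx3, a pentraxin that binds complement and belongs to no list, was at 28.2, 27.4 and 28.9 against 3.19, 2.70 and 3.45. Lgals9, galectin 9, was at 9.95, 10.6 and 10.6 against 1.33, 1.07 and 1.03. The summed level of macrophage and leukocyte markers given above moved in the same direction as these 3 lists, while Csf1r among them rose (log2 fold change 0.76). The part of such cells in the result was not tested, and the defining markers Ptprc, Adgre1 and Itgam stood at or near 0 in both groups.

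**Figure D3:**
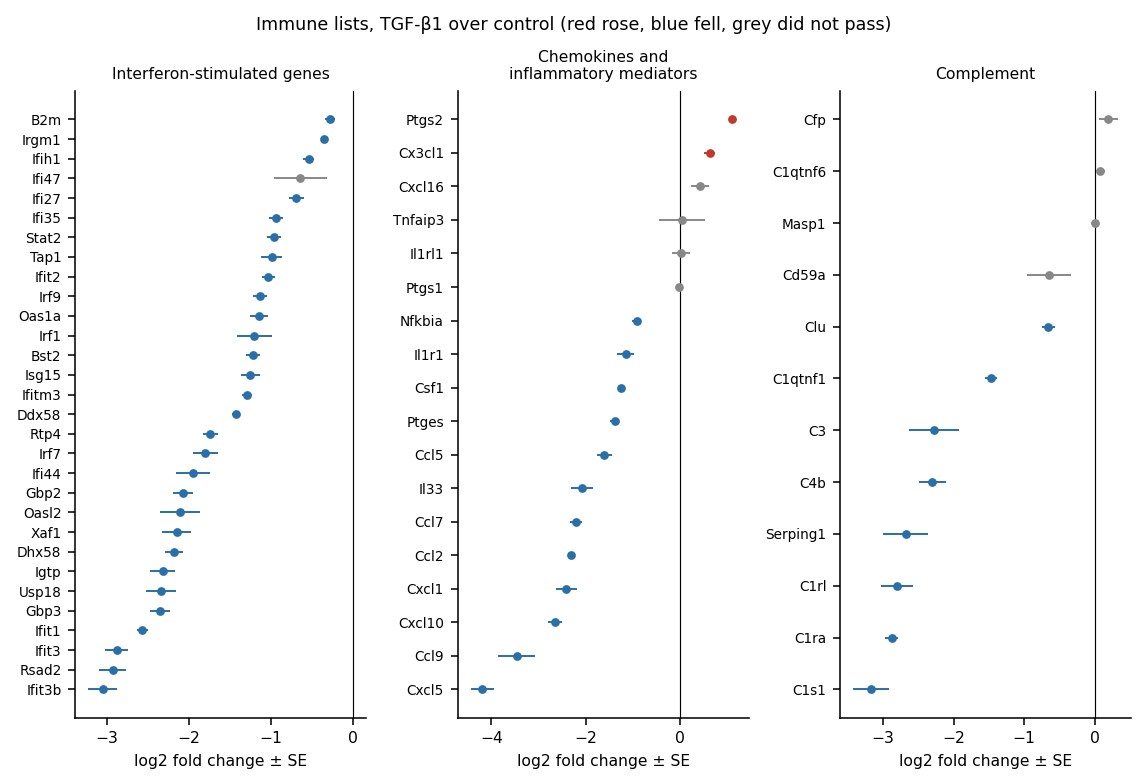
Log2 fold change of TGF-β1 over control with its standard error (bars) for tested members of the interferon-stimulated (30 of 31 shown), chemokine and inflammatory mediator (18) and complement (12 of 13 shown) lists. Red members rose, blue members fell and grey members did not pass. All but 1 of the interferon-stimulated genes shown are blue, and Ptgs2 and Cx3cl1 are the 2 red members.

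The largest fall of all named genes was that of Angptl7, a secreted angiopoietin-like protein, at 8.64, 8.57 and 8.94 FPKM in control and 0.239, 0.0572 and 0.0774 with TGF-β1 (log2 fold change -6.04 ± 0.71 SE). Dlk2, a membrane protein related to the adipogenesis inhibitor Dlk1, was at 9.52, 11.7 and 8.73 against 0.982, 0.987 and 0.980. Both were even in control. Rpl30-ps10, a pseudogene of a ribosomal protein, was at 207, 141 and 158 against 6.87, 9.83 and 9.30. Gm6161, a predicted gene, was at 10.3, 6.86 and 8.36 against 0.577, 0.474 and 0.0863. The parent gene Rpl30 was at 27.7, 35.0 and 25.9 against 42.4, 44.8 and 50.0, and reads of the pseudogene and the parent cannot be told apart with certainty. Of the 28 ribosomal protein genes listed as a reference, Rpl30, Rpl10 and Rpl4 rose and 25 did not pass, with a median log2 fold change of 0.09. Rpl10 was at 247, 265 and 258 against 256, 267 and 298 FPKM. Rpl4 was at 1026, 1058 and 1048 against 1076, 1106 and 1131, and their rises of 0.15 and 0.14 were small. The groups overlapped for Rpl10, and its call was lost in 9 alternatives.

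Other genes of no list fell from high levels. S100a4, a calcium-binding protein often used as a fibroblast marker, was at 1415, 1520 and 1402 FPKM in control and 554, 524 and 605 with TGF-β1. Lgals3, galectin 3, was at 82.6, 112 and 95.9 against 30.0, 27.1 and 32.8. The metallothioneins Mt1 and Mt2, which bind zinc and copper, fell from means of 62.4 to 25.8 and from 56.0 to 17.0. All 4 were abundant in control and lower in every treated library. The water channel Aqp1 was at 30.3, 28.9 and 30.4 against 4.19, 4.31 and 4.15. Cavin2, of caveolae, was at 26.9, 24.9 and 25.6 against 4.54, 4.37 and 4.18. The transcription factor Osr1 was at 15.5, 17.1 and 18.3 against 2.64, 2.33 and 2.60. Of 8 semaphorin genes tested, 5 were lower by the 2-fold rule (Sema3a, Sema3b, Sema3c, Sema3f and Sema5a), against the rise of Sema7a. Of the 6 with a mean of at least 1 FPKM in both groups, 3 were lower and 1 higher.

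**Figure D4:**
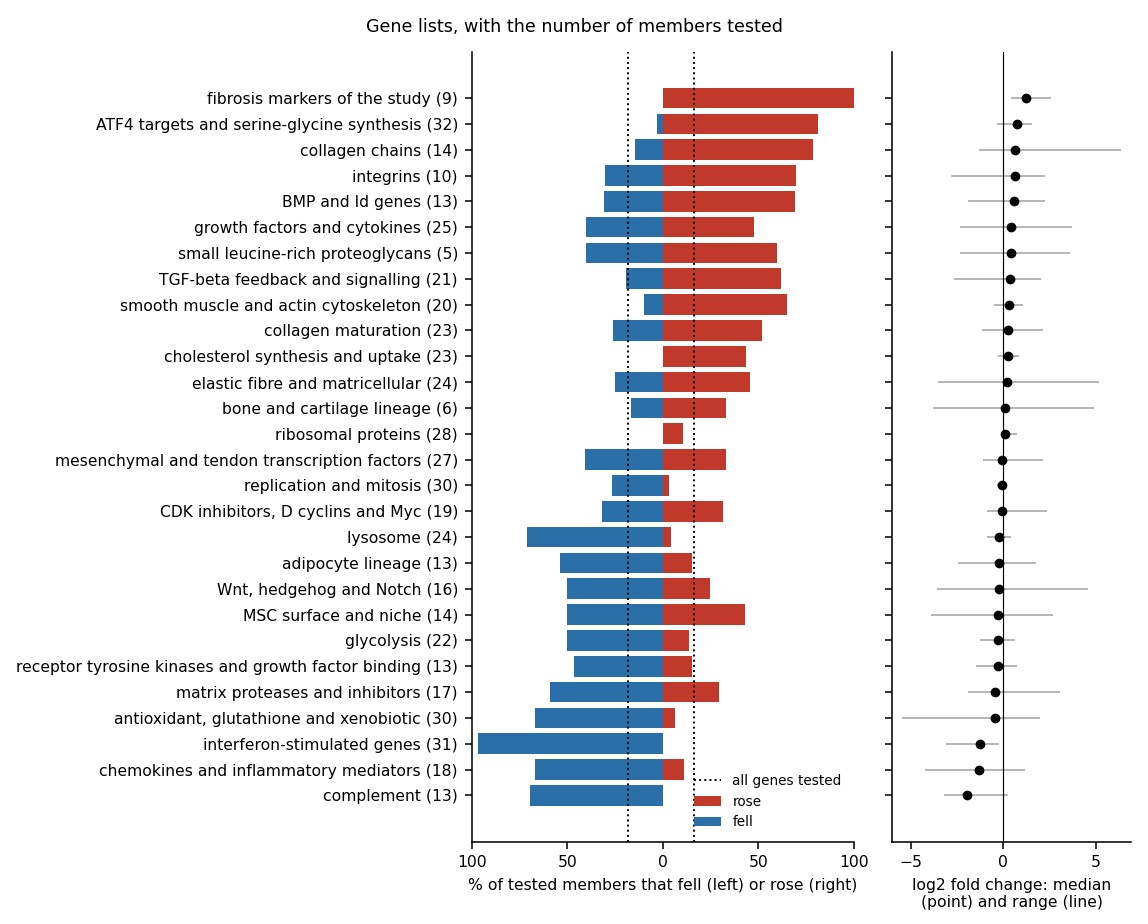
Left, the percentage of the tested members that rose (red, right) in each gene list with 5 or more tested members or that fell (blue, left), with dotted lines at the share of all genes tested, 16.5% for rises and 18.4% for falls. Right, the median (point) and range (line) of the log2 fold changes. The interferon-stimulated, chemokine and complement lists lie at the bottom, and the fibrosis markers of the study and the ATF4 list at the top.

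Targets of ATF4 rose broadly. ATF4 is a transcription factor that is translated under amino acid shortage or endoplasmic reticulum stress and that turns on amino acid uptake and the synthesis of serine, glycine, proline and asparagine. All 32 genes were tested, 26 rose, 1 fell, and 9 were higher by the 2-fold rule, with a median log2 fold change of 0.76. Trib3, a pseudokinase that feeds back on ATF4, was at 12.7, 13.8 and 13.6 FPKM in control and 37.8, 35.9 and 36.5 with TGF-β1. Ddit4, an inhibitor of mTORC1, was at 19.9, 19.8 and 20.1 against 51.1, 53.0 and 56.4. Aldh1l2, a mitochondrial folate enzyme, was at 18.8, 17.9 and 18.6 against 50.7, 43.6 and 43.4. Of the serine and glycine pathway, Psph, Shmt2 and Mthfd2 rose by 0.72, 0.66 and 1.01, Phgdh by 0.24 (a call lost in 3 of 14 alternatives, with limma and without replicate 1 of the control or replicate 3 with TGF-β1), and Psat1 (-0.10) did not pass. Without replicate 3 with TGF-β1, Psat1 passed as lower (log2 fold change -0.19, edgeR adjusted p = 0.00621). Of the proline pathway, Pycr1 and Aldh18a1 rose by 1.23 and 0.77. Of the amino acid transporters, Slc6a9, Slc7a11, Slc1a4, Slc7a5, Slc7a1, Slc1a5, Slc3a2 and Slc38a2 rose, by 0.34 to 1.17. The changes were thus spread over synthesis, transport and feedback.

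Ddit3 fell, and Atf4 itself did not pass the test. Ddit3 (CHOP), a stress-induced transcription factor, fell from 33.4, 33.9 and 32.3 FPKM to 26.8, 25.3 and 26.0. Atf4 mRNA was at 113, 111 and 230.1 against 321, 174 and 287 FPKM (log2 fold change 0.84 ± 0.40 SE, edgeR adjusted p = 0.136). Its replicates differed widely in both groups, and replicate 3 of the control lay above replicate 2 with TGF-β1. Without replicate 3 of the control its log2 fold change was 1.28, with an edgeR adjusted p of 0.0401. Cth, which makes cysteine, and Adm2, genes of no list, rose from 6.76, 7.44 and 7.74 to 30.8, 29.2 and 32.9 and from 3.14, 3.83 and 3.60 to 12.1, 11.4 and 12.7.

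The composite element that C/EBP and ATF factors bind (CARE) was searched as the letters TGATGNAA on either strand, and none of its matches printed here overlapped a match of another motif searched. It occurred in 9 of the 23 risen members with a promoter window (39.1%) and in 0 of the 5 that did not pass, against 200 of the 8198 tested genes with a window (2.44%). The 200 bases before the start of 3 risen members are shown in the same way, with the matches in capitals.
Pycr1, chr11:120643749-120643948, - strand: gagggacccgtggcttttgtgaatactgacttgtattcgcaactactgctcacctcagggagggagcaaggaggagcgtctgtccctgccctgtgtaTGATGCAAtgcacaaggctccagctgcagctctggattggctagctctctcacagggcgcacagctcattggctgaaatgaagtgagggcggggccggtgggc
Nupr1, chr7:126625471-126625670, - strand: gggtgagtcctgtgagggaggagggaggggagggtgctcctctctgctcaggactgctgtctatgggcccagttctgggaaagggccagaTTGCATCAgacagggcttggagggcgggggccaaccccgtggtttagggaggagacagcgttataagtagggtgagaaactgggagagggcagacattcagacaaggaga
Slc7a11, chr3:50443614-50443813, - strand: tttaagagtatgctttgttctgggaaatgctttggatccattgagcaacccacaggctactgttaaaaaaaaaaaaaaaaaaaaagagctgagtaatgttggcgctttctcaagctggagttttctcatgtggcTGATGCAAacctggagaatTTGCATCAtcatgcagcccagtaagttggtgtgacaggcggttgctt

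Slc7a11, the cystine transporter, holds 2 matches on opposite strands and was at 2.28, 2.19 and 2.18 FPKM in control and 4.87, 4.26 and 3.73 with TGF-β1. Pycr1 was at 4.74, 4.59 and 4.95 against 11.3, 10.6 and 10.3. Nupr1, a stress-induced chromatin protein, was at 19.1, 21.2 and 15.6 against 36.7, 33.3 and 39.9. Outside the list, 191 tested genes held the letters, of which 37 rose (19.4%) and 42 fell (22.0%), close to the 17.5% and 20.5% of the genes without them. Among the few called higher there were Fgf21 and Gadd45g. The remaining motifs gave fewer matches. The CArG box, which SRF binds, was found in 1 of the 11 risen contractile genes with a window (9.09%) and in 6 of 24 members overall (25.0%), against 1.55% of the tested genes with a window. The SMAD palindrome GTCTAGAC was found in 1 of 13 signalling genes with a window, Smad6, against 0.305%.

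Glycolytic genes fell more often than they rose, mostly by less than 2-fold. Of 24 genes, 22 were tested, 3 rose and 11 fell, with a median log2 fold change of -0.31. Slc16a1, the lactate and pyruvate transporter MCT1, was at 47.1, 43.4 and 43.9 FPKM in control and 22.4, 19.7 and 21.2 with TGF-β1. Pdk1, which restrains pyruvate dehydrogenase, was at 3.13, 3.40 and 3.06 against 1.54, 1.38 and 1.06. Ldhb was at 27.1, 24.5 and 32.3 against 14.9, 14.3 and 14.1. Slc2a1, Hk2 and Slc16a3 rose. Slc2a1, a glucose transporter, was at 24.2, 23.6 and 23.2 against 32.0, 32.1 and 31.2. Hk2, a hexokinase, was at 14.5, 13.5 and 12.2 against 19.5, 18.4 and 18.9, while Hk1, another hexokinase, was at 20.1, 19.3 and 13.5 against 13.9, 13.9 and 10.5 and did not pass (log2 fold change -0.40). Without replicate 3 of the control, Hk1 passed as lower (edgeR adjusted p = 0.0491). Slc16a3 was at 2.17, 2.20 and 1.82 against 2.23, 2.38 and 2.74 (edgeR adjusted p = 0.0464), and this call was lost in 9 of the 13 alternatives that tested it. Gapdh did not pass, and its control libraries ranged from 33.3 to 82.2 FPKM.

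Antioxidant and detoxifying enzymes fell broadly. Of 32, 30 were tested, 2 rose and 20 fell, and 10 were lower by the 2-fold rule. Aldh1a1, a retinaldehyde dehydrogenase, was at 4.22, 3.78 and 3.39 FPKM in control and 0.0424, 0.0868 and 0.122 with TGF-β1. Its relative Aldh1a3, which was below the filter and not tested, was at 0.0191, 0.0479 and 0 against 1.065, 1.097 and 0.896. Aldh3a1 was at 30.3, 31.7 and 28.6 against 4.12, 3.78 and 4.31. The glutathione transferase Gstt1 was at 11.9, 12.9 and 11.6 against 1.89, 1.35 and 1.61. Gstm1, another transferase, was abundant, at 90.2, 94.6 and 94.0 against 27.4, 23.9 and 26.9. The falls covered the glutathione transferase families alpha, mu, theta and microsomal (Gsta4, Gstm1, Gstm2, Gstt1, Gstt3, Mgst1 and Mgst3). Nqo1 and Hmox1, targets of NRF2, fell (log2 fold changes of -0.94 and -0.46), while Srxn1 and Txnrd1, also its targets, did not pass (0.23 and -0.05). Nox4, an oxidase that makes hydrogen peroxide, rose from 0.705, 0.479 and 0.554 to 2.10, 2.22 and 2.14, and Cat, catalase, which removes it, from 35.1, 35.1 and 34.1 to 39.5, 41.7 and 39.8.

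**Figure D5:**
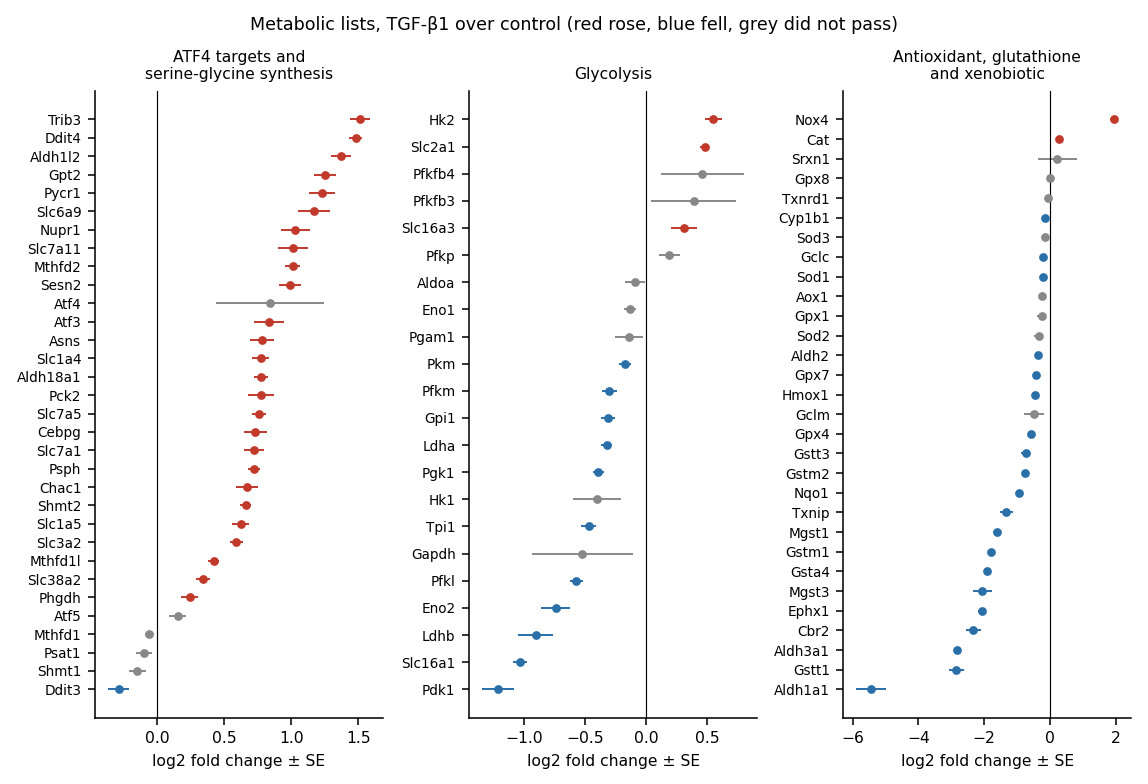
Log2 fold change of TGF-β1 over control with its standard error (bars) for the tested members of the ATF4 and serine-glycine (32), glycolysis (22) and antioxidant, glutathione and xenobiotic (30) lists. Red members rose, blue members fell and grey members did not pass, and the x axes differ in range. Most of the first list lies to the right of 0 and most of the third to the left.

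Most lysosomal genes fell, and 10 of 23 tested cholesterol genes rose, each within 2-fold. Of 29 lysosomal genes, 24 were tested, 1 rose and 17 fell, with a median of -0.24. The protease Ctsb was at 137, 146 and 140.2 FPKM in control and 85.4, 82.2 and 87.5 with TGF-β1. Grn, progranulin, was at 34.9, 33.8 and 30.2 against 18.9, 18.4 and 19.1. Tpp1 was at 12.2, 6.65 and 11.2 against 5.67, 5.44 and 5.27. Cd63, of late endosomes, was the 1 that rose, from 120.0, 129.8 and 127 to 150.5, 153 and 157. Of 24 cholesterol genes, 23 were tested, 10 rose, 0 fell and 13 did not pass, with a median of 0.23. Fdps, which makes farnesyl diphosphate, was at 17.5, 18.0 and 19.4 against 28.5, 28.6 and 31.2. Cyp51 was at 18.5, 18.4 and 18.6 against 27.4, 27.7 and 27.6.

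Wnt, hedgehog and Notch genes changed mostly downwards apart from the Notch arm. Of 29, 16 were tested, 4 rose and 8 fell. With Jag1, the Notch target Hes1 rose, from 4.90, 5.69 and 6.26 FPKM to 23.1, 21.8 and 21.4, and so did Notch2 (log2 fold change 0.50), while Hey1, Hey2 and Heyl were below the filter. In the Wnt arm, Axin2, a feedback target, was at 1.61, 1.75 and 1.18 against 0.800, 0.612 and 0.517. Dkk3 was at 5.34, 5.34 and 5.47 against 2, 1.89 and 1.80. Lef1, a transcription factor of the pathway, was at 1.33, 1.01 and 1.35 against 2.27, 2.46 and 2.47. Axin2 and Lef1 thus moved apart. In the hedgehog arm, Hhip and Gli2 fell (log2 fold changes of -1.11 and -0.46), beside Gas1, and Ptch1 did not pass (-0.06).

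Proliferation genes changed little. Of 30 replication and mitosis genes, all tested, 1 rose and 8 fell, with a median of -0.08 and no 2-fold call. With limma on log2(FPKM + 1), 14 of them fell. Ccnb2 was at 53.0, 54.0 and 56.6 FPKM in control and 39.1, 44.4 and 45.6 with TGF-β1. Ccna2 was at 58.5, 59.1 and 54.1 against 46.4, 44.5 and 46.3. Cdc20 was at 87.0, 93.2 and 88.4 against 68.1, 73.0 and 74.3. Mki67, the marker of cycling cells, was at a mean of 40.5 and 38.0 and did not pass. Mcm6, the 1 that rose, differed by 0.10 with overlapping groups, and this call was lost in 7 alternatives. Among 19 tested cell cycle regulators, the stress-induced Gadd45a, Gadd45b and Gadd45g rose, with Gadd45a at 13.2, 16.0 and 14.4 against 68.1, 70.6 and 72.3. Gadd45g was at 43.8, 48.7 and 47.0 against 130.4, 143 and 149. Gadd45b was at 22.6, 23.0 and 25.1 against 53.5, 53.5 and 58.0. The cyclin-dependent kinase inhibitors that passed were lower, with Cdkn2a at 170.4, 181 and 172 against 93.9, 102 and 109. Cdkn2d was at 8.02, 8.80 and 8.48 against 5.67, 5.76 and 6.00, and Cdk6 fell from 3.35, 2.97 and 3.06 to 1.65, 1.77 and 1.58. Cdkn1a (p21), Cdkn1c, Cdkn2c and Myc did not pass, with log2 fold changes of 0.03, -0.69, -0.08 and 0.09.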

How the data were processed

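Poly(A)-selected RNA of the MSCs was sequenced in pairs from strand-marked libraries on an Illumina NovaSeq. The authors checked read quality with fastp (the submitters' processing notes also name cutadapt 1.9), aligned the reads to GRCm38 with HISAT2 2.0.4 and assembled transcripts with StringTie 1.3.4d. The authors deposited 1 table with a count and an FPKM value for each library and gene. How the counts were made is not given in the sources used here. Counts from 1 to 12 were multiples of 4 in 43.8% of cases, so counts divided by 4 were run as an alternative.

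Genes that reached 1 FPKM in 3 or more of the 6 libraries were tested from the counts with edgeR 4.0.16 (quasi-likelihood F test, two-sided, R 4.3.3), with trimmed mean of M-values scaling and all 12 libraries in 4 groups, since the groups share 1 estimate of the spread. P-values were adjusted by Benjamini and Hochberg over the 11619 genes. On simulated data with 11619 genes and 100 changes of each size, 99 of the 2-fold changes and 71 of the log2 changes of 0.5 were recovered, with 6 false calls. The simulation gave every gene the same dispersion, so that these figures do not cover genes whose replicates differ widely. Gene symbols shared by several genes were left to the lowest Ensembl identifier. The gene lists and the members named were chosen with earlier results of these data known, so that no list is independent evidence of its direction. Some single genes are not reported here. Promoter windows came from RefSeq (GRCm38.p6), and motifs were counted with no test. Alternatives covered scaling by median ratios, DESeq2 1.42.0, the filter, the libraries in the fit, a replicate block, limma 3.58.1 on log2(FPKM + 1), and leaving out each library.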

Additional observations from a re-analysis of the deposited data

How the results depend on the processing

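The counts of 2-fold calls depended on the filter and on the scale. Without a filter on low values, 806 genes were higher and 1241 lower, with FPKM of at least 5 in place of 1 the counts were 149 and 192 among fewer genes tested, and with limma on log2(FPKM + 1) they were 179 and 283, a fit that differs in unit, scaling, pseudocount and test together, so that the cause was not tested. At an adjusted p under 0.05, 1418 genes fell with FPKM of at least 5. Leaving out 1 library gave 278 to 296 higher and 460 to 490 lower 2-fold calls, and 1575 to 1832 rises and 1887 to 1979 falls at the adjusted threshold. Of the 283 higher and 470 lower genes, 279 and 467 were also called with DESeq2, which called 281 and 473. With a replicate block the counts were 285 and 464, and 1840 and 2059 at the adjusted threshold. Deviations of libraries with the same replicate number correlated at -0.00074, 0.082 and -0.044, so the numbers were not taken to pair the libraries. Of the 297 tested genes that the text names (218 with FPKM of at least 5), 273 kept their direction and their side of the adjusted threshold in every alternative. The call was lost for Gm10273 (in 8 alternatives), Mcm6 (7), Rpl10 (9), Rpl4 (1), Slc16a3 (9), Thbs1 (5), Bmpr1a (4), Smad1 (4), Ly6e (3), Phgdh (3), Skil (2) and Tgfb2 (2), all in their main direction. Atf4, Cdkn1c, Hk1, Ifi47, Psat1 and Txnrd1 passed in 1 alternative each, and Ly96 in 2. Of 5 genes that did not pass, the sign turned. Cdkn1a had a log2 fold change of -0.02 with limma and -0.02 to 0.06 with 1 library left out. Masp1 had -0.01 with FPKM of at least 5, -0.05 with limma, and -0.02 to 0.04 with 1 library left out. With 1 library left out, Mki67 ranged from -0.13 to 0.06, Ptch1 from -0.23 to 0.12 and Srxn1 from -0.22 to 0.62. In the replication and mitosis list, 14 genes fell with limma, against 8. Expression depth limited the members below 1 FPKM, among them 9 of the 40 interferon-stimulated and 11 of the 29 chemokine and mediator genes, which were not tested.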
